A study of Mus musculus with 11 samples.

Results

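The 27 genes described here encode the machinery by which a nerve ending releases transmitter from synaptic vesicles. They were taken by name from a list of synaptic vesicle, SNARE, active zone and vesicular glutamate transporter genes. The rule used names only, but the genes were chosen with earlier results of these data known. All 27 were found among the 55401 genes in the count files, and all 27 passed the filter on low counts, which left 16817 genes to test.

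The trigeminal ganglion holds the cell bodies of the sensory neurons that serve the face and mouth, and its neurons were the source of the RNA. They had taken up the dye DiI at their endings, were sorted by its fluorescence and were sequenced in bulk after poly(A) selection. The MOC1 arm held 3 female and 3 male libraries from mice that bore tumours of MOC1, a mouse line of oral squamous cell carcinoma. The sham arm held 3 female and 2 male libraries from sham controls injected with DiI. The ganglia of both sides were taken, and the sorting gate was set on naive and sham mice. Strain, age, tumour site, time since injection, and whether a library pools animals, are not stated in the sources used here. A p-value therefore measures the spread between these libraries, which may be in part technical.

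A vesicle fuses when the vesicle SNARE protein VAMP zips together with syntaxin and SNAP-25 on the cell membrane. Synaptotagmins sense the calcium that enters with an action potential, complexins clamp and then aid the SNAREs, and the Munc13, RIM, bassoon and piccolo proteins hold vesicles ready at the active zone. In trigeminal neurons this machinery releases glutamate, which the VGLUT transporters load into vesicles, at central endings in the brainstem. SNARE proteins and synaptotagmins also serve the release of peptides such as CGRP from large dense-core vesicles.

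Depth ran from 10757426 to 16703797 counts in genes. On principal components 1 to 3 of log2 CPM, MOC1 female 3, MOC1 male 2 and MOC1 female 2, in that order, lay far from the other libraries. Sham female 1 held 1289 CPM of 8 summed endothelial markers, against 78.7 to 217 CPM elsewhere. Defining neuronal genes were abundant, with Tubb3 between 816 and 1350 CPM. RNA of satellite glia, which ensheathe the bodies of sensory neurons, was present too: its 14 markers summed to between 3024 and 5412 CPM in MOC1 and between 8418 and 9987 CPM in sham libraries. Of these 14 markers, 13 fell and none rose. The 8 markers of squamous tumour cells summed to between 2.40 and 10.3 CPM in MOC1 and between 4.52 and 7.43 CPM in sham libraries. Of these, Krt5, Krt6a and Krt17 were at 0 in every library, Krt14 (at most 0.574 CPM) and Dsg3 (at most 1.97 CPM) had counts in MOC1 libraries alone and Epcam (at most 1.31 CPM) in sham libraries alone, and Sfn and Trp63 had counts in both arms. None of them passed the test or, for the 4 genes removed by the filter on low counts, was tested. In bulk RNA, fewer cells of a type and less RNA per cell cannot be told apart.

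The release genes covered a wide range of levels. Values for 1 gene across libraries are given as CPM, counts scaled by TMM to a library of 1000000. Levels of different genes are compared as CPM per kb, which divides CPM by the length of all exons in kilobases. Exons of every annotated transcript were merged, retained introns included, so the order depends on the annotation as well as on CPM. Sncg, which encodes gamma-synuclein of sensory neurons, was the most abundant in sham libraries at 1666 ± 163 CPM per kb (SD, n = 5). Cplx1 (complexin 1) followed at 197 ± 9.77 CPM per kb and Syt4 (synaptotagmin 4) at 171 ± 17.5 CPM per kb. Snap25 (124 ± 14.1 CPM per kb), Syn1 (123 ± 15.04 CPM per kb) and Vamp2 (116 ± 8.21 CPM per kb) came next and did not differ beyond their spread. At the foot of the order stood Slc17a7 at 4.07 ± 2.01 CPM per kb, Rab3b at 3.66 ± 0.856 CPM per kb and Unc13b at 2.44 ± 0.319 CPM per kb, of which Slc17a7 and Rab3b overlapped in spread. By CPM alone Unc13b (55.4 CPM in sham libraries) stood above Slc17a7 (21.9 CPM) and Rab3b (12.9 CPM), and its merged exons span 22746 bases. The sparsest value behind any of these genes was 121 counts, for Rab3b in 1 library, and the largest 27465 counts, for Sncg.

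**Figure D1:**
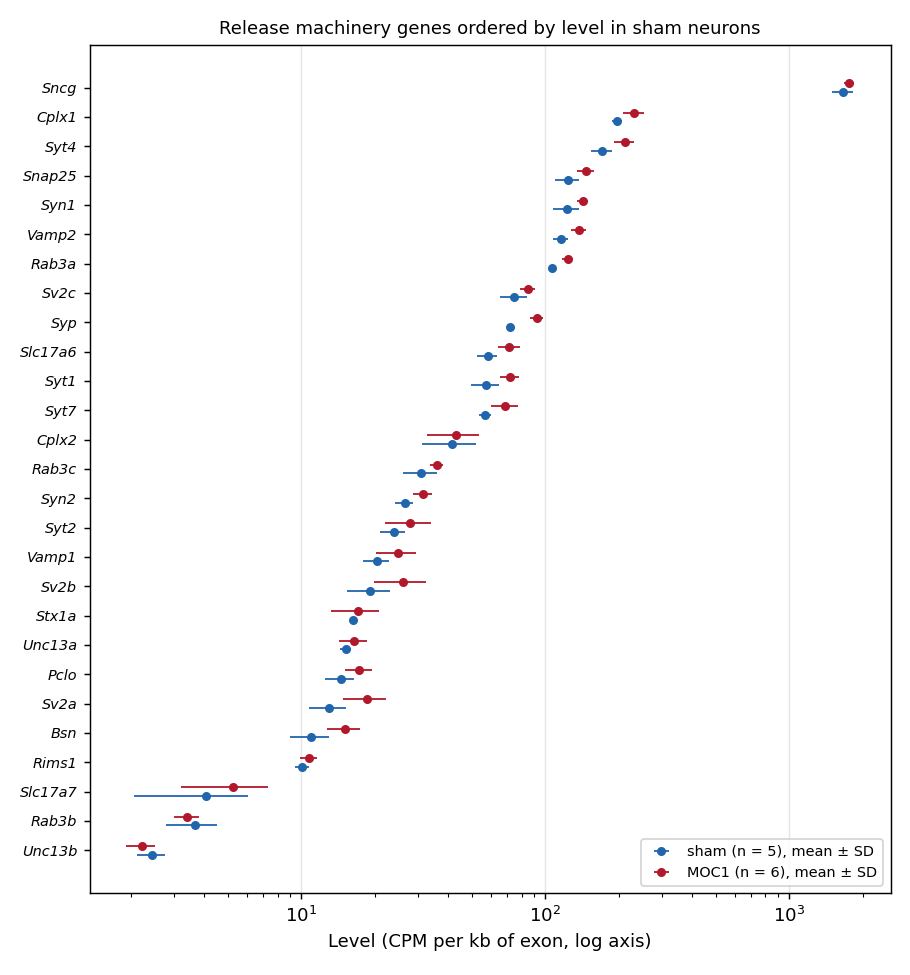
Level of each of the 27 genes in CPM per kb of exon on a log axis, as mean ± SD of 5 sham libraries (blue) and 6 MOC1 libraries (red), ordered by the sham mean. Sncg stands far above the others, and Slc17a7, Rab3b and Unc13b lie at the foot.

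Start-site sequences show what the promoters of these genes have in common. In the RefSeq table for GRCm38.p6, 23 of the 27 genes had at least 1 window of 300 bases, from 250 before to 50 after a start site, and these genes had 31 windows. Both strands were searched for 7 motifs: the cAMP response element TGACGTCA, the left part TTCAGCACC and the right part GGACAGCGC of the RE1 element, the NRF1 core GCATGCGC, the GC box GGGCGG, the E-box CACGTG and the TATA box TATAAA. RE1 is bound by the repressor REST, which keeps many synaptic genes silent outside neurons. A GC box was present in 21 of the 31 windows, against 35.7% of all 32851 windows in the table. A TATA box was present in 3 of the 31, against 13.6% of all windows, and the median GC content was 61.3% against 52.7%. The left RE1 part was found at Syn1 and Unc13a (0.371% of all windows) and the right part at Unc13a (0.405%). The cAMP response element was found at Syn1 (1.79% of all windows), the NRF1 core at Bsn and Syn1 (2.71%), and the E-box at Sv2b and Unc13b (7.15%). A match describes the letters and is not evidence that a factor binds there.

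Windows of 4 genes are printed: Syp and Bsn, the genes called most often when 1 library at a time was left out of the test below, and Syn1 and Unc13a, which hold the RE1 parts. Capitals mark every match to the 7 motifs on either strand. The NRF1 core is matched on both strands of each full site in Bsn, so those matches overlap, and no others do. The windows lie at chrX:7638330-7638629 (Syp, plus strand), chr9:108190334-108190633 (Bsn, minus strand), chrX:20920869-20921168 (Syn1, minus strand) and chr8:71671708-71672007 (Unc13a, minus strand) of GRCm38.p6.
Syp: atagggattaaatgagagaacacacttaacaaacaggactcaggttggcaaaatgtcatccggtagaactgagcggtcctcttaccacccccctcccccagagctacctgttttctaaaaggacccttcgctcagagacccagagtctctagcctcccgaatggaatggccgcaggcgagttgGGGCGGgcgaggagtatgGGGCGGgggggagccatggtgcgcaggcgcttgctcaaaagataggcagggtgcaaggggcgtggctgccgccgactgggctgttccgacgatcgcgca
Bsn: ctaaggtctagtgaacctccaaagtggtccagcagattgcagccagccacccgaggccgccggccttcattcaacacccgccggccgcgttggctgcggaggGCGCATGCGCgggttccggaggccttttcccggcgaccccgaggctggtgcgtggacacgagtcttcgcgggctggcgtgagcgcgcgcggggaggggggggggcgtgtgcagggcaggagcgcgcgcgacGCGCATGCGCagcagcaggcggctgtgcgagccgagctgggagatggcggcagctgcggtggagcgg
Syn1: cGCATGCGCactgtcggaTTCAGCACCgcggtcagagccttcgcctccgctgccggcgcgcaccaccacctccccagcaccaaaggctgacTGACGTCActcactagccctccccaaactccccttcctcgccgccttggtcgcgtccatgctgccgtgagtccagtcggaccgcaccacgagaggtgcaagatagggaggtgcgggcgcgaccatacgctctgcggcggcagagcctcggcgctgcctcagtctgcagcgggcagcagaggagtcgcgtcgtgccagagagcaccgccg
Unc13a: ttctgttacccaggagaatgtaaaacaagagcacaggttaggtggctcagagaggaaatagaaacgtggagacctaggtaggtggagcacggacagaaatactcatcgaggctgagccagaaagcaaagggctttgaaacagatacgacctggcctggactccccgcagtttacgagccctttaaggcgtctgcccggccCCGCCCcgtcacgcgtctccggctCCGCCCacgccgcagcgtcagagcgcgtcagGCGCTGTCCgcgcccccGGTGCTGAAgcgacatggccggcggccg
The capitals show 2 GC boxes in Syp and 2 NRF1 stretches in Bsn. In Syn1 they show the NRF1 core, the left RE1 part and the cAMP response element, in that order. In Unc13a they show 2 GC boxes and then both RE1 parts, all as their reverse complements.

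The comparison of the study is between neurons of tumour-bearing and sham mice. Of the 27 release genes, 7 rose in MOC1 libraries and none fell. They were Syp, Bsn, Syt4, Syt1, Slc17a6, Sv2a and Vamp2. Their gains were modest, from 1.18-fold for Vamp2 to 1.43-fold for Sv2a. Over all genes tested, 2.34% were called higher and 4.28% lower, against 25.9% and 0% of the release genes. All of them are counted deeply, which many other genes are not, and they were chosen with earlier results of these data known. The median log2 fold change of the 27 was 0.24, and that of all genes -0.03. Of the 27, 18 had an unadjusted p under 0.05, 11 of which did not pass, where 18.5% of all genes tested had one in either direction. In 25 of the 27 the difference was above 0, against 47.3% of all genes tested. DESeq2, the tool the study names, called 13 of the 27 higher and none lower (3.85% and 5.4% of all genes), and edgeR with no filter on low counts also called 13 higher and none lower (2.29% and 4.12%). With libraries scaled by their total counts 5 were higher and none lower (1.88% and 4.52%).

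These differences are relative to the RNA of the whole library, in which the satellite glia markers were lower in every MOC1 library than in any sham library. The same held for the summed markers of Schwann cells (839 to 989 CPM in MOC1 and 1109 to 1405 CPM in sham libraries, with 4 of 13 genes lower) and of fibroblasts (59.8 to 71.8 CPM and 90.2 to 179 CPM, with 1 of 6 lower). The 20 pan-neuronal markers, a list that holds none of the release genes, had a sum of 14848 ± 755 CPM in the 6 MOC1 libraries (mean ± SD) and of 12532 ± 1129 CPM in the 5 sham libraries, and 9 of the 20 rose. The release genes summed to between 10260 and 10985 CPM in MOC1 and between 8589 and 9399 CPM in sham libraries, without overlap. Per 100 counts in pan-neuronal markers there were 71.0 ± 3.65 counts in release genes in MOC1 (range 66.3 to 75.6) and 72.9 ± 4.46 in sham libraries (range 69.5 to 80.6), so the arms overlapped. After each library was scaled to those 20 markers instead, edgeR called none of the 27 higher or lower (0.161% and 10.8% of all genes). Of the 27, 2 had an unadjusted p under 0.05, against 4338 of all 16817 genes. The median of all genes moved to -0.30. DESeq2 was not run with that scaling. The neurofilament genes Nefl, Nefm and Nefh are among the 20 markers, with sham means of 1892, 1473 and 790 CPM. Nefh is high in large myelinated neurons, and a scaling without these genes was not run. With pan-neuronal scaling 9 of the 27 were above 0, against 19.2% of all genes, and the median of the 27 was -0.03. Scaled to the satellite glia markers, all 27 were called higher, as were 60.6% of all genes (0.262% were lower), with a median of 1.12 over all genes. With the share of satellite glia markers as a covariate edgeR called none of the 27 and none of all genes. Of the 27, 2 had an unadjusted p under 0.05, as had 1187 of all 16817 genes. The arms do not overlap in that share, so this fit can hardly tell the share from the arm. Its SE was 0.18 for Syp and 0.26 for Bsn, against 0.06 and 0.11 in the test. Of the 27, 12 were above 0 in that fit, against 52.1% of all genes. The median of the 27 was -0.02, against 0.04 over all genes.

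**Figure D2:**
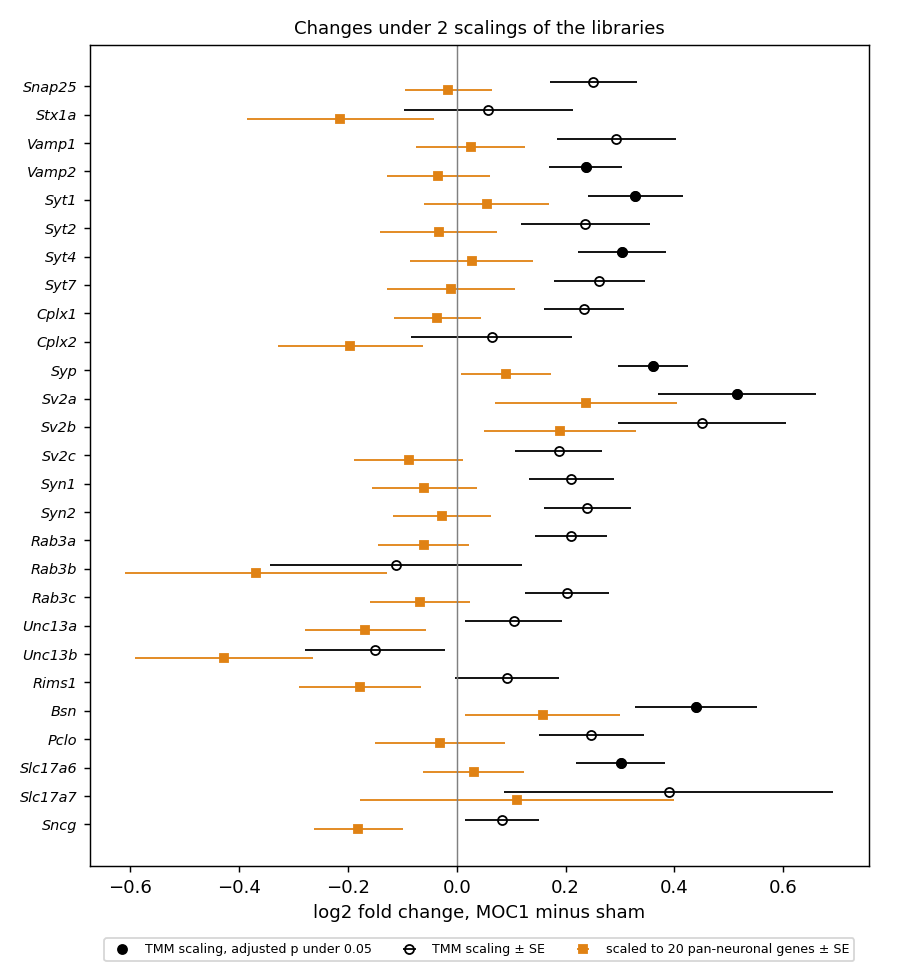
The log2 fold change of each gene, MOC1 minus sham, ± SE, with TMM scaling (black, filled where the adjusted p is under 0.05) and with scaling to 20 pan-neuronal markers (orange). The 7 filled points lie between 0.24 and 0.51, and every orange point lies to the left of its black one.

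The number of calls also rested on single libraries. It was 3 without MOC1 female 2, 2 without MOC1 female 3, 3 without MOC1 male 3, 1 without sham female 2 and 3 without sham male 3, and between 5 and 9 without any other library. Calls over all genes moved too, from 394 of 16817 higher with all libraries. In the order of the libraries named, 250 of 16627, 349 of 16728, 287 of 16619, 265 of 16585 and 258 of 18367 were higher. Syp was called whichever library was left out, and Bsn in 9 of the 11 cases. Without MOC1 female 3, MOC1 male 2 and sham female 1 together 6 were called, all but Slc17a6 of the 7. Over all genes 447 of 16301 were higher in that fit.

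Among the SNARE genes, Vamp2 passed and Snap25, Vamp1 and Stx1a did not. Vamp2, the main vesicle SNARE of the brain (chromosome 11, 69088490 to 69092384, GRCm38), rose from 440.4 ± 31.3 CPM in sham (SD, n = 5) to 523 ± 36.3 CPM in MOC1 libraries (SD, n = 6). Vamp2 stood at 474, 494 and 546 CPM in MOC1 females, at 568.4, 508 and 546 CPM in MOC1 males, at 433, 431 and 426 CPM in sham females and at 495 and 416 CPM in sham males. Its log2 change was 0.24 ± 0.07 SE (adjusted p = 0.0398), called in 3 of the 11 fits that leave out 1 library and not with total-count scaling (adjusted p = 0.0611). The arms overlapped through 1 library, sham male 1, which stood above MOC1 female 1 and 2. Snap25, the membrane SNARE, had a log2 difference of 0.25 ± 0.08 SE (adjusted p = 0.0708). Snap25 stood at 1039.8, 1044 and 965 CPM in MOC1 females, at 846, 1066 and 1024 CPM in MOC1 males, at 718, 843 and 981 CPM in sham females and at 799 and 862 CPM in sham males. All MOC1 libraries but male 1 and female 3 stood above the highest sham library. Vamp1, the vesicle SNARE related to Vamp2, had a difference of 0.29 ± 0.11 SE (adjusted p = 0.134) and ranged from 176 to 305 CPM in MOC1 and from 171 to 231 CPM in sham libraries. Stx1a, which encodes syntaxin 1A, was the least abundant SNARE gene per length. Stx1a stood at 54.2, 49.3 and 27.1 CPM in MOC1 females, at 51.1, 40.2 and 50.5 CPM in MOC1 males, at 42.1, 43.4 and 42.2 CPM in sham females and at 44.7 and 44.1 CPM in sham males. MOC1 female 3 and MOC1 male 2 stood below every sham library and the other 4 MOC1 libraries above every one. The log2 difference was 0.06 ± 0.15 SE (adjusted p = 0.907).

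Of the calcium sensors, Syt1 and Syt4 rose and Syt7 and Syt2 did not pass. Syt1, the fast calcium sensor of vesicle release (chromosome 10, 108497650 to 109010982), rose from 478 ± 62.0 CPM in sham (SD, n = 5) to 599 ± 52.1 CPM in MOC1 libraries (SD, n = 6). Syt1 stood at 563, 584 and 685 CPM in MOC1 females, at 637, 546 and 578 CPM in MOC1 males, at 536, 382 and 509.6 CPM in sham females and at 510.1 and 449.8 CPM in sham males. Every MOC1 library stood above every sham library, though MOC1 male 2 exceeded sham female 1 by little. The log2 change was 0.33 ± 0.09 SE (adjusted p = 0.0272), and it was called in 6 of the 11 fits that leave out 1 library. Arms that do not overlap, with MOC1 higher, were found for 3 of the 27 genes (Syt1, Syp and Rab3a), or 11.1%, and for 2.15% of all genes tested. None had every MOC1 library below every sham library, against 4.18% of all genes. Syt4, a synaptotagmin found largely on dense-core vesicles, rose from 666 ± 68.2 CPM in sham (SD, n = 5) to 823 ± 74.8 CPM in MOC1 libraries (SD, n = 6). Syt4 stood at 714, 828 and 883 CPM in MOC1 females, at 911, 758 and 846 CPM in MOC1 males, at 751, 568.2 and 699 CPM in sham females and at 674 and 639.6 CPM in sham males. Only MOC1 female 1 lay within the sham range, and the log2 change was 0.30 ± 0.08 SE (adjusted p = 0.0267), called in 4 of those 11 fits. Syt7, a slow calcium sensor of high affinity, had a log2 difference of 0.26 ± 0.08 SE (adjusted p = 0.071), with MOC1 libraries from 451 to 613 CPM and sham libraries from 392 to 456 CPM. Syt2, the fast sensor that takes the place of Syt1 in many fast-firing neurons, had the widest overlap of the 4. Syt2 stood at 244, 259.9 and 240.0 CPM in MOC1 females, at 133, 204 and 204 CPM in MOC1 males, at 152, 212 and 183 CPM in sham females and at 187 and 179 CPM in sham males. MOC1 male 1 was the lowest of all 11 libraries and the MOC1 females were the 3 highest. The log2 difference was 0.24 ± 0.12 SE (adjusted p = 0.303).

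Neither complexin gene passed. Cplx1 went from 431 ± 21.4 CPM in sham (SD, n = 5) to 505 ± 49.6 CPM in MOC1 libraries (SD, n = 6), a log2 difference of 0.23 ± 0.07 SE (adjusted p = 0.0661). Cplx1 stood at 557, 545 and 497 CPM in MOC1 females, at 417, 496 and 519.8 CPM in MOC1 males, at 394, 446 and 446 CPM in sham females and at 432 and 437 CPM in sham males. Of the MOC1 libraries, male 1 alone lay within the sham range. Cplx2 stood at 205 ± 51.3 CPM in sham (SD, n = 5) and 213 ± 51.7 CPM in MOC1 libraries (SD, n = 6). Cplx2 stood at 236, 237 and 282 CPM in MOC1 females, at 132, 184 and 206 CPM in MOC1 males, at 139.9, 282 and 209.5 CPM in sham females and at 204 and 188 CPM in sham males. Both arms were spread over a similar range, from 132 to 282 CPM in MOC1 and from 140 to 282 CPM in sham libraries, and the log2 difference was 0.06 ± 0.15 SE (adjusted p = 0.891).

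**Figure D3:**
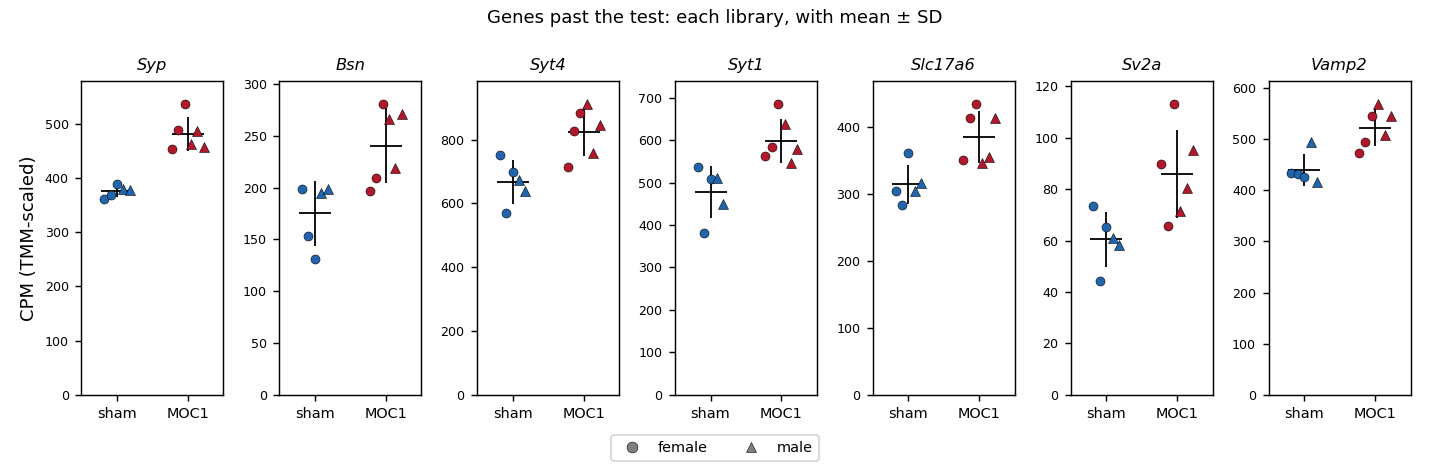
CPM of the 7 genes that passed the test in each library (circles, females; triangles, males), with mean ± SD of 5 sham and 6 MOC1 libraries and axes from 0. The arms do not overlap for Syp and Syt1 and overlap by 1 or more libraries for the other 5.

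The genes of vesicle membrane proteins held the steadiest difference and the largest one. Syp encodes synaptophysin, a major protein of the vesicle membrane (chromosome X, 7638471 to 7653256, its start-site window printed above). It rose 1.28-fold, from 375 ± 10.03 CPM in sham (SD, n = 5) to 481 ± 30.8 CPM in MOC1 libraries (SD, n = 6). Syp stood at 454, 489 and 536 CPM in MOC1 females, at 463, 487 and 457 CPM in MOC1 males, at 362, 369 and 388 CPM in sham females and at 379 and 378 CPM in sham males. The sham libraries lay close together and every MOC1 library stood above all of them. The log2 change was 0.36 ± 0.06 SE (adjusted p = 0.00142), and it lay between 0.32 and 0.38, with an adjusted p of at most 0.00542, whichever library was left out. Sv2a, a vesicle glycoprotein and the target of the drug levetiracetam (chromosome 3, 96181151 to 96195521), rose 1.43-fold, from 60.4 ± 10.6 CPM in sham (SD, n = 5) to 85.9 ± 17.2 CPM in MOC1 libraries (SD, n = 6). Sv2a stood at 89.6, 65.7 and 113 CPM in MOC1 females, at 71.3, 80.6 and 95.4 CPM in MOC1 males, at 73.2, 44.3 and 65.4 CPM in sham females and at 60.8 and 58.3 CPM in sham males. MOC1 female 2 and male 1 lay within the sham range. The log2 change was 0.51 ± 0.15 SE (adjusted p = 0.0385), and it was called in 3 of the 11 fits that leave out 1 library and not with total-count scaling.

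Sv2b and Sv2c, the related glycoproteins, did not pass, with log2 differences of 0.45 ± 0.15 SE (adjusted p = 0.0968) and 0.19 ± 0.08 SE (adjusted p = 0.208) in that order. Sv2c, per length the highest of the 3, stood at 725 ± 89.8 CPM in sham (SD, n = 5) and 826 ± 59.1 CPM in MOC1 libraries (SD, n = 6). Sv2b ranged from 127 to 287 CPM in MOC1 and from 113 to 188 CPM in sham libraries, and MOC1 male 1 was the sole MOC1 library within the sham range. The synapsins tether vesicles in the reserve pool. Syn1 had a log2 difference of 0.21 ± 0.08 SE (adjusted p = 0.137) and Syn2 of 0.24 ± 0.08 SE (adjusted p = 0.0842). Syn1 stood at 498, 479 and 481 CPM in MOC1 females, at 485, 426 and 457 CPM in MOC1 males, at 380.0, 423 and 343 CPM in sham females and at 476 and 409.8 CPM in sham males. Sham male 1 reached the level of the MOC1 libraries and the other sham libraries stood below all of them. Syn2 stood between 202 and 251 CPM in MOC1 and between 161 and 203 CPM in sham libraries.

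RAB3 proteins are small GTPases that bring vesicles to the active zone, and none of their 3 genes passed. Rab3a was the closest. Rab3a stood at 281, 296 and 288 CPM in MOC1 females, at 265, 259.6 and 265 CPM in MOC1 males, at 229.5, 237 and 233 CPM in sham females and at 249 and 244 CPM in sham males. Every MOC1 library stood above every sham library, yet the log2 difference of 0.21 ± 0.07 SE (adjusted p = 0.0672) missed the threshold. Rab3c had a log2 difference of 0.20 ± 0.08 SE (adjusted p = 0.146), with MOC1 libraries from 404 to 462 CPM and sham libraries from 315 to 455 CPM. Rab3b was rare. Rab3b stood at 11.2, 9.85 and 13.6 CPM in MOC1 females, at 12.3, 11.6 and 13.3 CPM in MOC1 males, at 10.3, 14.3 and 13.7 CPM in sham females and at 16.7 and 9.39 CPM in sham males. The sham range contained the MOC1 range, and the log2 difference was -0.11 ± 0.23 SE (adjusted p = 0.879).

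At the active zone, Bsn rose and the other 4 genes did not pass. Bsn encodes bassoon, a giant scaffold protein (chromosome 9, 108096022 to 108190384). It rose 1.36-fold, from 175 ± 31.4 CPM in sham (SD, n = 5) to 241 ± 36.3 CPM in MOC1 libraries (SD, n = 6). Bsn stood at 196, 209 and 281 CPM in MOC1 females, at 267, 219 and 271 CPM in MOC1 males, at 199, 153 and 131 CPM in sham females and at 195 and 199 CPM in sham males. In all, 5 of the MOC1 libraries stood above the sham range and MOC1 female 1 stood within it. The log2 change was 0.44 ± 0.11 SE (adjusted p = 0.0201), and the call was lost without sham female 2 (adjusted p = 0.0629) or sham female 3 (adjusted p = 0.0554). Pclo, which encodes the related scaffold piccolo, had a log2 difference of 0.25 ± 0.10 SE (adjusted p = 0.16), with MOC1 libraries between 315 and 463 CPM and sham libraries between 285 and 394 CPM. Unc13a encodes Munc13-1, which primes vesicles. Unc13a stood at 168, 227 and 214 CPM in MOC1 females, at 237, 179.5 and 219 CPM in MOC1 males, at 187, 194 and 181 CPM in sham females and at 206 and 191 CPM in sham males. Above the sham range stood 4 MOC1 libraries, and 2 stood below it, and the log2 difference was 0.10 ± 0.09 SE (adjusted p = 0.626). Unc13b, its relative, was 1 of 2 genes with a difference below 0, at -0.15 ± 0.13 SE (adjusted p = 0.623). Unc13b stood at 45.3, 39.6 and 54.1 CPM in MOC1 females, at 57.9, 50.9 and 54.7 CPM in MOC1 males, at 61.5, 61.9 and 46.9 CPM in sham females and at 48.3 and 58.3 CPM in sham males. The arms overlapped over most of their range. Rims1, whose product RIM1 ties vesicles to calcium channels, stood between 70.2 and 85.8 CPM in MOC1 and between 69.6 and 81.0 CPM in sham libraries, a log2 difference of 0.09 ± 0.09 SE (adjusted p = 0.704).

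Slc17a6 encodes VGLUT2, the main vesicular glutamate transporter of sensory neurons (chromosome 7, 51622006 to 51671119), and it rose from 314 ± 28.8 CPM in sham (SD, n = 5) to 385 ± 39.0 CPM in MOC1 libraries (SD, n = 6). Slc17a6 stood at 350.2, 412 and 433 CPM in MOC1 females, at 345, 355 and 413 CPM in MOC1 males, at 304, 283 and 360.5 CPM in sham females and at 304 and 316 CPM in sham males. MOC1 male 1, MOC1 female 1 and MOC1 male 2 lay within the sham range, the top of which was set by sham female 3. The log2 change was 0.30 ± 0.08 SE (adjusted p = 0.0304), called in 4 of the 11 fits that leave out 1 library. Slc17a7, which encodes VGLUT1, was much lower per length and varied most of the 27, with a coefficient of variation of 38.8% in MOC1 and 49.4% in sham libraries. Slc17a7 stood at 36.1, 39.2 and 17.1 CPM in MOC1 females, at 13.8, 37.6 and 26.2 CPM in MOC1 males, at 12.7, 22.9 and 13.9 CPM in sham females and at 20.4 and 39.7 CPM in sham males. High and low libraries were found in both arms, and the log2 difference was 0.39 ± 0.30 SE (adjusted p = 0.573).

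Sncg did not pass. Sncg stood at 1541, 1549 and 1433 CPM in MOC1 females, at 1591, 1411 and 1489 CPM in MOC1 males, at 1284, 1392 and 1622 CPM in sham females and at 1492 and 1309 CPM in sham males. Sham female 3 was the highest of all 11 libraries and sham female 1 the lowest. The log2 difference was 0.08 ± 0.07 SE (adjusted p = 0.595), among the smallest of the 27 although its counts were the highest.

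**Figure D4:**
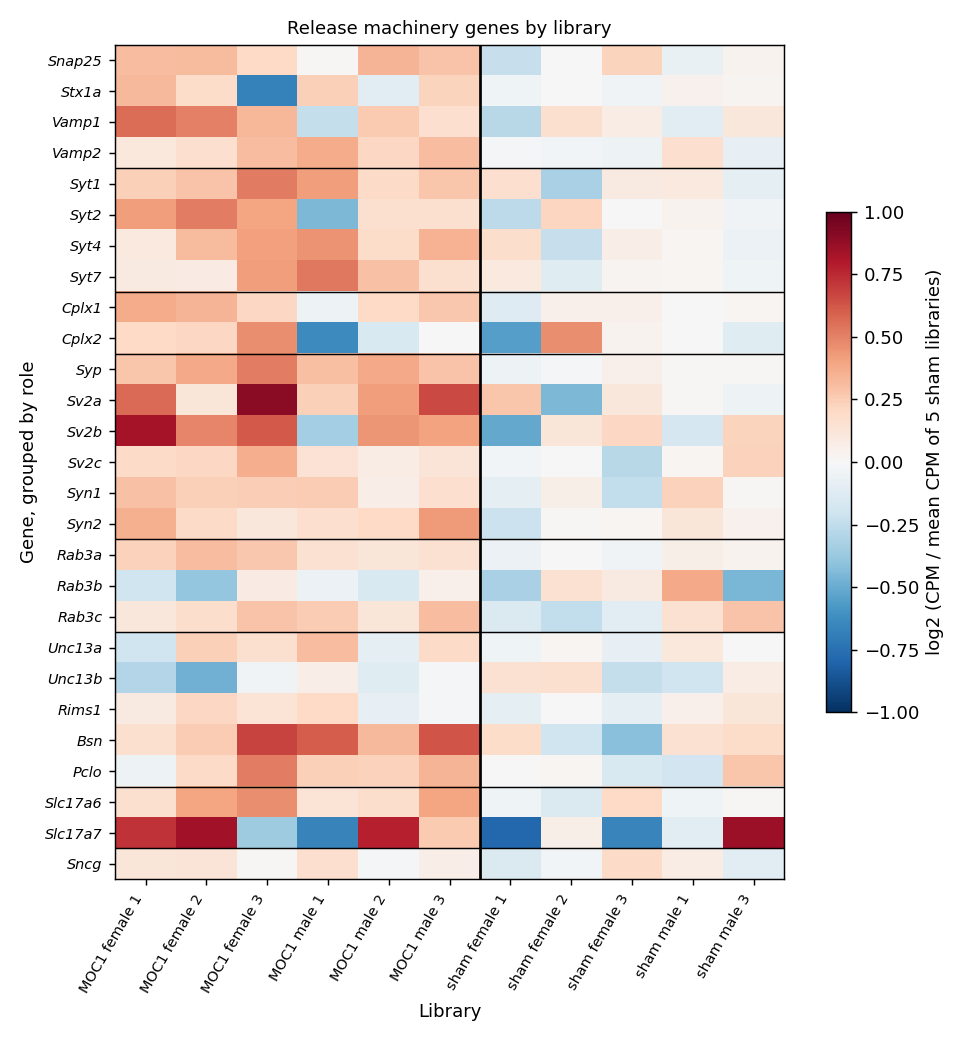
The 27 genes, grouped by role, in each library as log2 of CPM over the mean CPM of the 5 sham libraries (red, above; blue, below; white, equal). Most cells of the MOC1 columns are red, and in MOC1 male 1 and sham female 1 Vamp1, Syt2, Cplx2, Sv2b and Slc17a7 are blue.

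The genes were not all lowest or all highest in the same libraries. In MOC1 male 1, 8 of the 27 were at the lowest level of the arm and 6 at the highest, and in sham female 1, 13 were at the lowest and 4 at the highest. The lowest values of an arm fell in these libraries, in both arms, for 7 genes: Vamp1, Snap25, Syt2, Cplx1, Cplx2, Sv2b and Slc17a7. In the same 2 libraries Syt1, Syt4 and Syt7 were at or near the top of their arm. The neurofilament genes were lowest of their arm in the same 2 libraries. Nefh, which is high in large myelinated neurons, stood at 700 CPM in MOC1 male 1 (others 787 to 1122 CPM). In sham female 1 Nefh stood at 570 CPM (others 754 to 917 CPM). Nefm stood at 1348 CPM in MOC1 male 1 and 1158 CPM in sham female 1, and Nefl at 1802 and 1646 CPM. The summed pan-neuronal markers were also lowest there, at 13574 CPM in MOC1 male 1 and 10660.5 CPM in sham female 1. Low values there were thus not particular to Nefh. Sham female 1 also held the most endothelial RNA. These 7 genes and the neurofilament genes were picked after their values were seen. The part of neuron makeup or of endothelial RNA in their levels was not tested. Without MOC1 male 1, 9 of the 27 release genes were called, among them Snap25, Vamp1, Syt2, Cplx1 and Sv2b, while Syt1, Syt4 and Vamp2 lost their calls. Over all genes 332 of 16668 were higher in that fit.

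A ratio of 2 genes within a library does not depend on how libraries are scaled, so the balance between related genes was compared for 13 pairs. None of the 13 ratios differed between the arms after adjustment, and none had an unadjusted p under 0.05. The test was an exact permutation test, two-sided, with all 462 ways to regroup 11 libraries, and the smallest p it allows is 0.00216. The lowest values were those of Unc13b over Unc13a and of Pclo over Bsn. For Unc13b over Unc13a the log2 ratio was -2.04 ± 0.25 in MOC1 and -1.80 ± 0.21 in sham libraries (SD, n = 6 and 5, adjusted p = 0.45, exact permutation test). For Pclo over Bsn it was 0.69 ± 0.12 and 0.90 ± 0.26 (adjusted p = 0.45, exact permutation test). Per length, Vamp1 made up 15.4% ± 3.23 of Vamp1 and Vamp2 together in MOC1 and 15.1% ± 2.09 in sham libraries (SD, n = 6 and 5). Syt2 made up 28.0% ± 5.06 and 29.7% ± 5.09 of Syt1 and Syt2 together. Slc17a7 made up 6.88% ± 2.68 and 6.54% ± 3.03 of the 2 glutamate transporter genes. These shares rest on merged exons, which span 10167 bases for Vamp1 and 3809 for Vamp2. By counts alone the log2 ratio of Vamp1 over Vamp2 was -1.06 ± 0.38 in MOC1 and -1.09 ± 0.24 in sham libraries. Differences within these spreads were not detectable with 11 libraries. The 5 pairs plotted by library were picked after their values were seen, as pairs whose first gene was lowest in both MOC1 male 1 and sham female 1. The other ratios were mixed there. In MOC1 male 1, Syt7 over Syt1 was the highest of its arm and Pclo over Bsn the lowest. In sham female 1, Syn2 over Syn1 was the lowest of its arm.

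**Figure D5:**
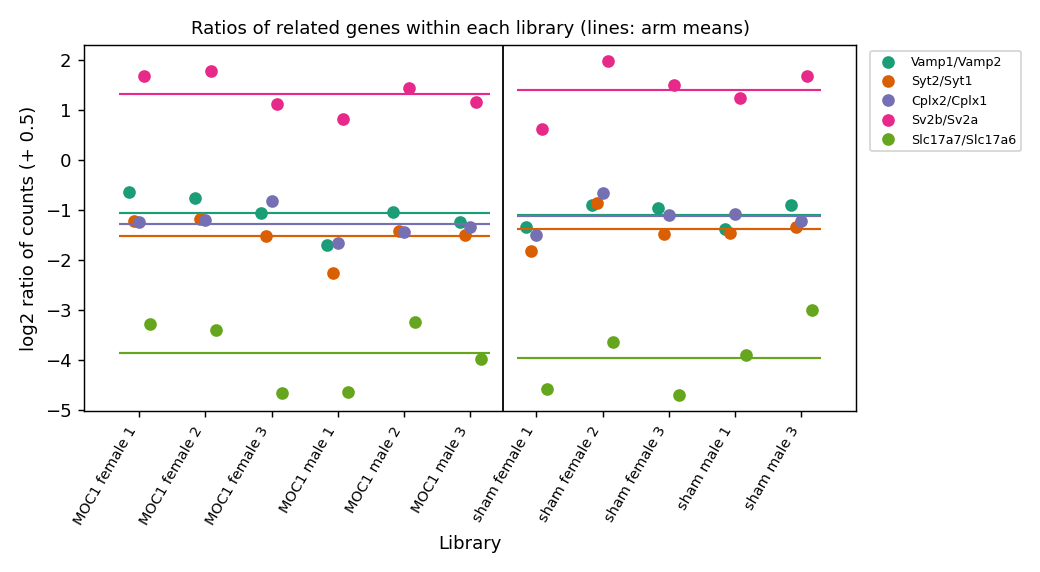
The log2 ratio of counts (+ 0.5) of 5 pairs of related genes in each library, with lines at the mean of each arm. The arm means lie close together for every pair, while MOC1 male 1 lies below the mean of its arm for all 5 pairs, as does sham female 1.

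The sexes were also compared. Within females 4 of the 27 genes rose (Syp, Rab3c, Sv2c and Syn1) and none fell, against 1.33% of all genes higher and 3.15% lower. Within males, where the sham arm has 2 libraries, edgeR called none of the 27, with 5 at an unadjusted p under 0.05, and DESeq2 called Syp alone. Over all genes in males edgeR called 0.166% higher and 1.09% lower, with 1337 of 16817 at an unadjusted p under 0.05. DESeq2 called 111 higher and 264 lower of 16817. Syp had a log2 change of 0.40 ± 0.09 SE in females (adjusted p = 0.0131) and a difference of 0.31 ± 0.10 SE in males (adjusted p = 0.212). Rab3c had a log2 change of 0.36 ± 0.09 SE in females (adjusted p = 0.0292) and stood at 0.01 ± 0.10 SE in males. Its mean was 427 CPM in MOC1 and 333 CPM in sham females, and 437 and 435 CPM in males. Sv2c had a change of 0.35 ± 0.09 SE in females (adjusted p = 0.0408) and stood at -0.01 ± 0.10 SE in males. Its mean was 866 CPM in MOC1 and 680 CPM in sham females, and 785 and 793 CPM in males. For both genes the sham females thus stood below the 2 sham males. Syn1 rose by 0.35 ± 0.10 SE in females (adjusted p = 0.0498), with 0.04 ± 0.11 SE in males. The difference between the sexes itself was not called by edgeR or DESeq2 for any of the 27, nor for any other gene that passed the filter on low counts (0%). In edgeR the difference between the sexes had an unadjusted p under 0.05 for 2 of the 27, Sv2c and Rab3c, at 0.0184 each (adjusted p = 0.9999 for both). Of all 16817 genes, 708 had one. Within females no release gene was called without MOC1 female 3, 1 was called without MOC1 female 2, and 2 without MOC1 male 3 or sham female 2. Over all genes 89, 63, 154 and 109 were higher in females in these fits, in that order, against 224 with all libraries.

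Beyond the 27, another 83 genes of the same pathway were measured and 76 of them passed the filter on low counts. They too were chosen with earlier results of these data known. Of these 76, 11 rose (14.5%) and 2 fell (2.63%), with a median log2 change of 0.19. Over all genes tested 2.34% rose and 4.28% fell, with a median of -0.03, so the share that fell was no larger than in general. Napb, a cofactor in the recycling of SNAREs, rose by 0.31 ± 0.07 SE on the log2 scale and the vesicle protein gene Syngr1 by 0.30 ± 0.06 SE. Of the dynamins, which pinch vesicles off the membrane when they are retrieved, Dnm3 rose by 0.37 ± 0.06 SE (adjusted p = 3.26e-04) and Dnm1 by 0.29 ± 0.06 SE. Atp6v1b2, a subunit of the proton pump that powers transmitter loading, rose by 0.28 ± 0.07 SE.

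The 2 that fell were Vamp3 and Itsn1, in the same libraries in which the satellite glia markers were lower, and the part of glial RNA in their fall was not tested. Vamp3, a SNARE of general membrane traffic that is common outside neurons, fell from 40.8 ± 9.35 to 16.9 ± 4.52 CPM (log2 -1.30 ± 0.20 SE, adjusted p = 3.26e-04). Itsn1, an endocytic scaffold, fell from 97.9 ± 15.3 to 70.0 ± 7.20 CPM (log2 -0.50 ± 0.11 SE, adjusted p = 0.00858). By role, the genes that rose were 3 of 18 SNARE and SNARE regulator genes, 3 of 15 priming and active zone genes, 3 of 12 endocytosis genes, 1 of 10 proton pump genes and 1 of 8 vesicle protein genes, and none of 10 further calcium sensors. Scaled to the pan-neuronal markers none of the 76 was higher and 6 were lower, Vamp3 (log2 -1.59) and Itsn1 (-0.77) among them, where 0.161% of all genes were higher and 10.8% lower. Without MOC1 female 2 or without MOC1 male 3, 7 of the 76 rose, where 250 of 16627 and 287 of 16619 genes did, in that order. Cplx3 and Cplx4, the complexins of the retina, and Slc32a1 and Slc18a3, the transporters that load inhibitory transmitter and acetylcholine, had no counts in any library.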

How the data were processed

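For each library the authors deposited raw read counts per gene, in whole numbers without normalization, as the file headers and values show. Trimmomatic 0.35, STAR 2.7.1a (strand-specific) and RSEM were used on GRCm38 (mm10), per the submitters' processing notes and the design text. An annotation release is not named there. Rows that name no gene took 18.7% to 21.5% of the counts in a library and were dropped.

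The test was edgeR 4.0.16 (R 4.3.3), a quasi-likelihood F test in a model with terms for arm and sex, on TMM-scaled counts of genes kept by filterByExpr over the 4 groups of arm and sex. Benjamini-Hochberg adjustment covered all genes tested, with a threshold of 0.05. Contrasts within a sex and their difference came from a fit of the 4 groups with a shared spread. The model with terms for arm and sex was tested on simulated counts, and the fit of the 4 groups was not. A standard error (SE) is the size of the log2 change over the square root of F. Exon lengths came from GENCODE M21, by unversioned identifier. Ratios used counts plus 0.5. Marker sums are CPM without TMM.

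The 27 genes, the marker lists and the pathway list (83 of 84 names matched) were chosen with earlier results of these data known, and the motifs were shortened to 9 letters or fewer after their matches were seen. Every library is given for genes that passed and for the highest and lowest of each role, and of the other pathway genes up to 6 in each direction with the smallest p, of which 1 is not reported here. Alternatives were DESeq2 1.42.0, other scalings and filters, no sex term, a replicate block, a glial covariate and libraries left out.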

Additional observations from a re-analysis of the deposited data

Results flagged for a closer look

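In 2 of the 54 sets of values (27 genes in 2 arms), 1 library lay far from the rest of its arm. Chance alone gives about 1 such set in 20. Sham male 1 held 495 CPM of Vamp2, where the other sham libraries held between 416 and 433 CPM. Sham female 1 held 394 CPM of Cplx1, where the other sham libraries held between 432 and 446 CPM. No release gene showed a difference between the sexes that passed the test.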

How the results depend on the processing

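Under all alternatives run, no release gene was called lower in the comparison of the arms, none showed a sex by tumour interaction and no family ratio passed. Of the 27, 13 were higher with DESeq2 and 13 with no low-count filter, 27 with satellite glia scaling, and 0 with pan-neuronal scaling or with the share of satellite glia markers as a covariate (its arms lie apart). In the same order as DESeq2, pan-neuronal scaling, satellite glia scaling and the covariate, 648, 27, 10194 and 0 of all genes were higher, and 18, 0, 67 and 0 of the other pathway genes. With pan-neuronal scaling, satellite glia scaling and the covariate, 1820, 44 and 0 of all genes were lower, and 6, 0 and 0 of the other pathway genes. With the covariate 1187 genes had an unadjusted p under 0.05. Within females 11 release genes were called with DESeq2, 12 with no filter and 1, the lower Unc13b, with pan-neuronal scaling, and within males 1 (Syp) with DESeq2. Over all genes in females, DESeq2 called 490 higher and 781 lower of 16817. With no filter these were 396 and 920 of 24535, and with pan-neuronal scaling 11 and 1885 of 16817. In males DESeq2 called 111 higher and 264 lower of 16817. Leaving out each library in turn gave between 1 and 9 release genes higher, between 0 and 5 within females, between 250 and 427 of all genes higher, and between 7 and 11 other pathway genes higher. Within females between 63 and 250 of all genes were higher in those fits. Of the 27, 25 were above 0 in the test, 9 with pan-neuronal scaling and 12 with the covariate. Over all genes these shares were 47.3%, 19.2% and 52.1%, in that order. Among the 7 called genes the sign turned for Vamp2 with pan-neuronal scaling (-0.034), and with the covariate for Vamp2 (-0.032), Syt1 (-0.18), Syt4 (-0.24), Sv2a (-0.090), Bsn (-0.34) and Slc17a6 (-0.18), none of them called. With satellite glia scaling Rab3b (1.06) and Unc13b (1.02) were called above 0. The cause was not tested. The labels link same-numbered libraries of the 2 arms by number only. Their deviations correlated between -0.04 and 0.04, and 3 of 5 MOC1 libraries correlated best with their own number. With 2 or 3 libraries per group these correlations cannot decide whether the libraries were paired. With sex and replicate number as a block 6 of the 27 were called (all but Vamp2 of the 7, adjusted p = 0.0554), as were 324 genes higher and 712 lower. The lowest count of a release gene in a library was 121, for Rab3b, where counting error is largest.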
